A study of Mus musculus with 2 samples.

Results

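The 37 genes described here carry out glycolysis, move its substrates and products, sense oxygen or are known targets of the hypoxia-inducible factors (HIF). They were taken by gene symbol from a fixed list, and all 37 were found among the 31018 symbols of the deposited matrices. They occupied 38 of 31054 gene rows, because Aldoa was listed in 2 rows, of which 1 held a single unique molecular identifier (UMI, a tag that marks 1 captured RNA molecule) over both libraries. Single-cell RNA was counted in 2 libraries, 1 per tumour type, from C57BL/6 inAd-Chaser-mTmG mice. These mice carry Adiponectin-rtTA, in which the promoter of an adipocyte gene drives the doxycycline-controlled activator, with TRE-Cre and the Rosa26 mT/mG reporter, so that a doxycycline pulse replaces tdTomato by EGFP in adipocytes and their progeny. The cells of both libraries were sorted as EGFP-positive and tdTomato-negative. The first library, called Met-1 below, is labelled as a Met-1 xenograft tumour, whereas the design text of the series names EO771 as the implanted cells. The second, called PyMT, came from a breast tumour of mice crossed to the PyMT line. Ages, the timing of the pulse and the number of mice behind each library were not given in the sources used here. With 1 library per tumour type no statistical test of a difference was possible, and every interval in parentheses is a 95% interval that covers counting error only.

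Glycolysis splits glucose into pyruvate through a chain of cytosolic enzymes, and lactate dehydrogenase turns pyruvate into lactate when it does not enter the mitochondria. Under low oxygen, the HIF alpha subunits escape the prolyl hydroxylases that mark them for destruction, pair with ARNT and bind short promoter and enhancer sites whose core reads ACGTG or GCGTG. Many glycolytic genes are textbook HIF targets, as are genes for blood vessel growth, mitophagy and collagen hydroxylation. Several steps have alternative isozymes encoded by separate genes, and tissues differ in which one they use.

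The promoter windows of these genes are rich in that core. The RefSeq promoter table (build GRCm38.p6) held windows from 250 bases before to 50 bases after the start for 33 of the 37 genes, 48 windows in all. Bnip3l, Epas1, Ndrg1 and Slc2a3 were not matched. ACGTG, searched on both strands, was present in 24 of the 33 genes (72.7%), against 21.8% of the 27025 genes of the table. By window the shares were 56.2% of 48 and 19.6% of 32851, all of 300 bases. ACGTG or GCGTG was present in 31 of 33 genes (93.9%), against 46.7% of all, and Gpi1 and Tpi1 had neither. The longer motif CACGTG, which contains ACGTG on both strands, was found in 10.4% of the windows of these genes and 7.15% of all windows. The list was assembled from known hypoxia genes, so this is a description of the list, and a match is not a bound site. The stretches below are shown because these 6 genes lead the neutrophil results or are standard glycolytic HIF targets. They are printed 5′ to 3′ on the strand of the gene, upstream of the start, with capitals marking ACGTG and GCGTG or their reverse complements CACGT and CACGC. Only the part of a window around its matches is printed, and where a gene had several windows the one with most ACGTG was taken. Ldha had 2 windows, and the one not printed (chr7:46846832-46847131) held 0 ACGTG and 2 GCGTG. Slc16a3 lies at chr11:120949028-120949066 (plus strand), Bnip3 at chr7:138909525-138909635 (minus), Ankrd37 at chr8:45999851-46000100 (minus), Egln3 at chr12:54204087-54204115 (minus), Ldha at chr7:46845647-46845786 (plus) and Pgk1 at chrX:106186938-106186985 (plus).
Slc16a3: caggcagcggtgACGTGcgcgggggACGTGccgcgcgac
Bnip3: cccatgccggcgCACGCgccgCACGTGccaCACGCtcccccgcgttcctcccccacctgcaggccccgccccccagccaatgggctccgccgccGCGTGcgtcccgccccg
Ankrd37: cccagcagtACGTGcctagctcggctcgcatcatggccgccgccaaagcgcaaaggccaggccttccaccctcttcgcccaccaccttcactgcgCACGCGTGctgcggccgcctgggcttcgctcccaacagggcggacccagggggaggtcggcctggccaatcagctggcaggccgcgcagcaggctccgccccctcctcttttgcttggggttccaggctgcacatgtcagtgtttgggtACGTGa
Egln3: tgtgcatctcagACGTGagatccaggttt
Ldha: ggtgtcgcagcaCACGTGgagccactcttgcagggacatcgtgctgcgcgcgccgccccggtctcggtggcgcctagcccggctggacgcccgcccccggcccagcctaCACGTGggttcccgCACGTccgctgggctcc
Pgk1: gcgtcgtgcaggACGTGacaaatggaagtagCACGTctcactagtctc
The Slc16a3 stretch holds 2 ACGTG cores within 39 bases, and the Ldha stretch 3 separate sites, of which 2 read CACGTG.

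Of 2451 Met-1 and 619 PyMT barcodes, 2112 and 589 were kept, with 19768692 and 4293854 UMIs and a median of 7684 and 3470 UMIs per cell. The libraries shared 0 barcodes. Cells were put into 10 classes by the number of distinct lineage markers with a UMI, which classified 88.2% of Met-1 and 90.8% of PyMT cells. Of the classified cells, 130 in Met-1 and 46 in PyMT stood exactly at a limit of that rule. At least 4 markers of both the macrophage and the B cell list were present in 100 and 16 of the kept barcodes. These were still classified where 1 list led by at least 2 markers, so mixed barcodes can remain in the classes. Although the gate targets progeny of adipocytes, the summed level of 6 adipocyte markers was between 0 and 31.8 CPM (the UMIs of a gene divided by all UMIs of its class, times 1000000), and Adipoq, Cidec and Lep were at 0 in every class. Myofibroblastic fibroblasts and pericytes were classified in Met-1 alone (150 and 98 cells). The 8 progenitor fibroblasts, 3 monocytes and 4 NK cells of PyMT were too few to compare between the libraries.

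Neutrophils had the highest summed level of the 37 genes in both libraries, at 7168 CPM in Met-1 (36 cells) and 16903 CPM in PyMT (178 cells). The Met-1 interval (6638 to 7730) overlaps that of Met-1 luminal cells (6460 to 6856). The 12 glycolytic enzymes alone were lower in Met-1 neutrophils, at 3733 CPM (3353 to 4144), than in Met-1 luminal cells, at 4533 CPM (4371 to 4698). In PyMT they were higher in neutrophils (10631 against 6828 CPM). B cells and progenitor fibroblasts were lowest in Met-1, at 2169 and 2738 CPM. Between these lay, in Met-1, luminal epithelial or tumour cells (6655), macrophages (5356), pericytes (4993), monocytes (4646), NK cells (3676), T cells (3578) and myofibroblastic fibroblasts (3272). In PyMT the order below neutrophils was luminal cells (9175), macrophages (6136), T cells (4673), progenitor fibroblasts (3198) and B cells (3107). Cell by cell, the genes took a median of 1.27% of the UMIs of a PyMT neutrophil, with quartiles at 0.746% and 2.30%. In Met-1 neutrophils the median was 0.538% (0.441% to 0.740%), the same as the 0.538% of Met-1 luminal cells. The quartile range of PyMT neutrophils therefore began above that of Met-1 neutrophils, and was the widest of the 15 plotted.

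**Figure D1:**
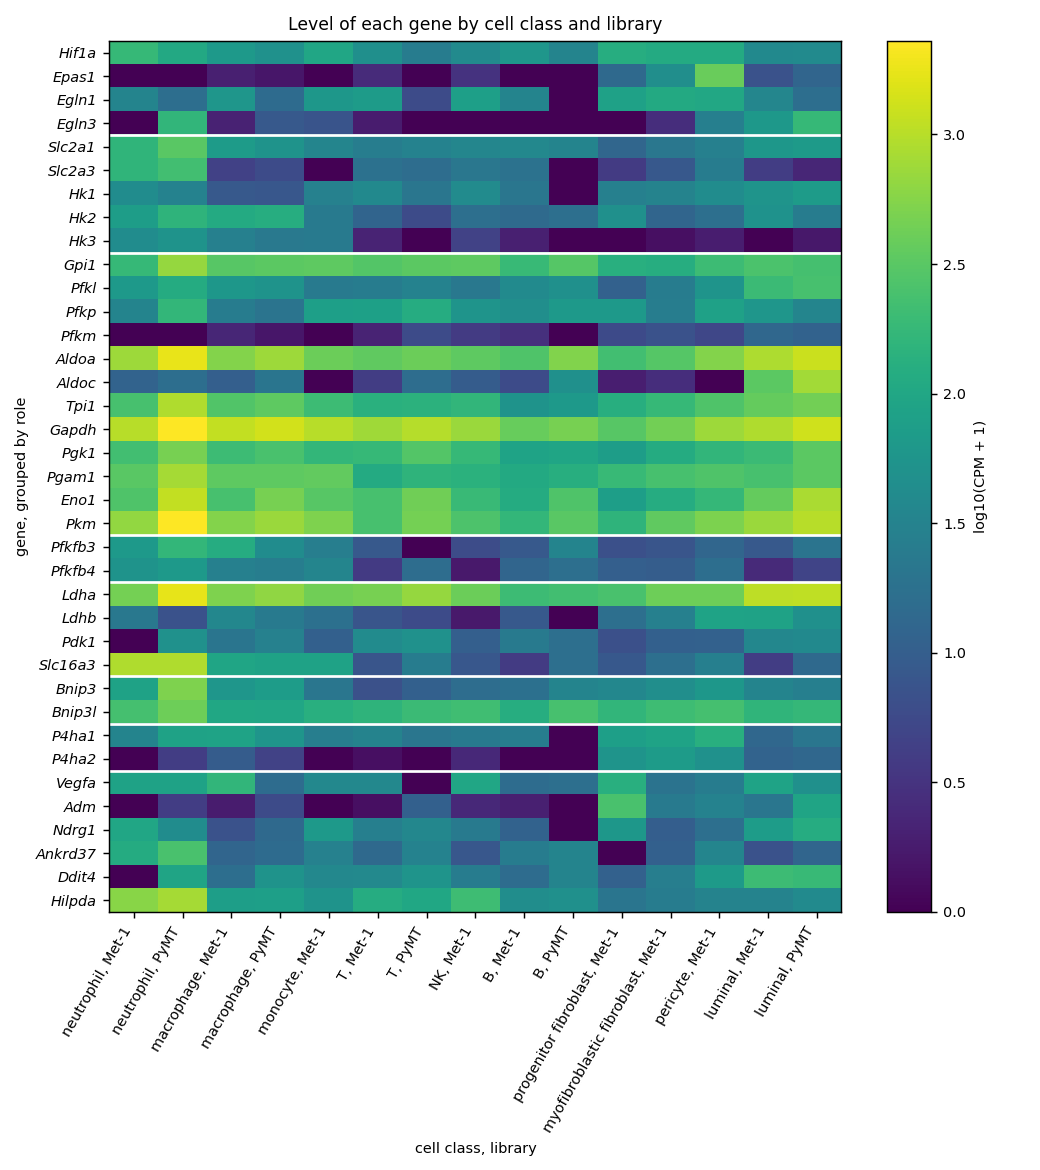
Level of each of the 37 genes (rows, grouped by role, separated by white lines) in each cell class and library with at least 20 cells (columns), as log10(CPM + 1) on the colour scale. The 2 neutrophil columns stand out in the Slc16a3 and Hilpda rows, pericytes in the Epas1 row, and both luminal columns in the Aldoc row.

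**Figure D2:**
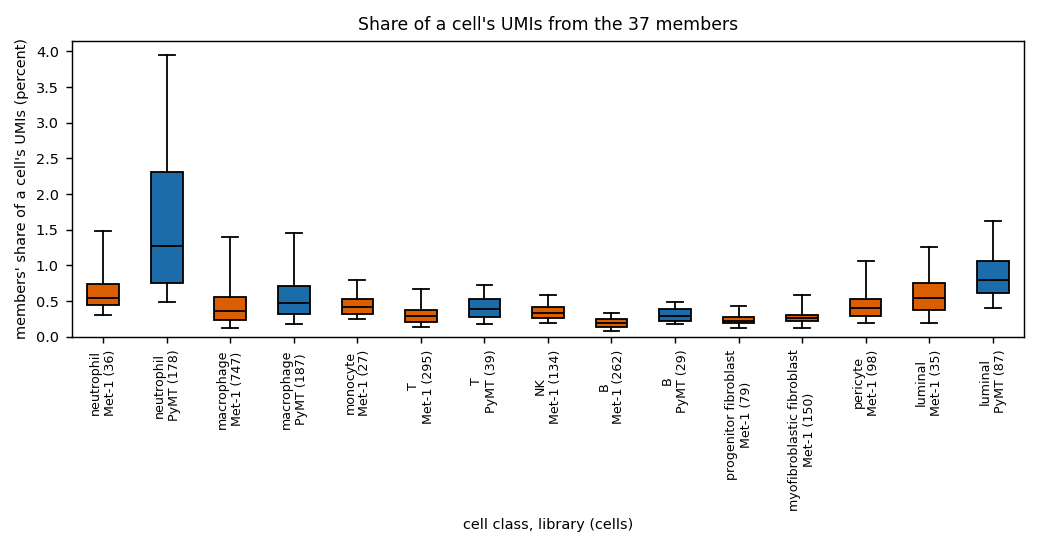
Share of each cell's UMIs that came from the 37 genes, in percent, by cell class and library (number of cells in brackets); the line is the median, the box the quartiles and the whiskers the percentiles 5 and 95. PyMT neutrophils had the highest median (1.27%) and B cells of Met-1 the lowest (0.198%).

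A lactate exporter and a lipid droplet protein were far higher in neutrophils than in the other classes of both libraries. Slc16a3, which encodes the lactate exporter MCT4, was at 923 CPM (739 to 1138) in Met-1 neutrophils and 919 CPM (818 to 1028) in PyMT neutrophils. In the other classes it was between 2.88 and 94.6 CPM, so that neutrophils exceeded the other classified cells of their library 21.7-fold (17.2 to 27.2) and 19.2-fold (15.9 to 23.3). Hilpda, a hypoxia-induced lipid droplet protein that restrains triglyceride breakdown, was at 583 CPM (439 to 759) and 806 CPM (712 to 909) in neutrophils. Its fold over the other classes was 7.85 (5.88 to 10.3) in Met-1 and 13.3 (11.0 to 15.9) in PyMT. After thinning each cell to 1000 UMIs, a Slc16a3 UMI was present in 43.8% of Met-1 neutrophils (26.4 to 62.3) and 50.9% of PyMT neutrophils (43.1 to 58.7) (61.1% and 64.0% without thinning). B cells, which served as the background, had 0% (0 to 1.42) and 0% (0 to 11.9), or 1.15% and 3.45% without thinning. Thinning left out 4 and 11 neutrophils and 4 and 0 B cells, and median depth was 2711.5 and 1620.5 UMIs in neutrophils and 3537 and 2093 in B cells. Hilpda RNA was more unevenly spread, with a UMI in 21.9% (9.28 to 40.0) and 23.4% (17.2 to 30.5) of thinned neutrophils (25% and 30.9% without thinning), against 4.65% (2.43 to 7.98) and 0% (0 to 11.9) of thinned B cells (11.8% and 10.3% without).

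Neutrophils also led the glucose transporters. Slc2a1, the ubiquitous transporter GLUT1, reached 159 CPM in the Met-1 and 312 CPM in the PyMT neutrophils, and Slc2a3, the high-affinity transporter GLUT3, at 159 and 218 CPM. Every other class with at least 20 cells had Slc2a1 at 12.1 to 68.4 CPM and Slc2a3 at 0 to 24.6 CPM. Hif1a, the alpha subunit stabilised in most cells under low oxygen, was highest in neutrophils too, with 180 CPM (105 to 289) and 106 CPM (73.9 to 148), and these intervals overlap those of progenitor fibroblasts (123 CPM) and pericytes (114 CPM). Hk3, a hexokinase of blood cells, was at 42.4 and 51.5 CPM in neutrophils (4 and 17 UMIs), at 28.2 and 21.6 CPM in macrophages and at 0 to 3.58 CPM in the non-myeloid classes. Pfkfb4, a kinase that makes the activator of phosphofructokinase, was at 53.0 and 63.7 CPM in neutrophils, against 25.2 to 32.6 CPM in macrophages and monocytes, and the Met-1 interval (17.2 to 124) covers those levels.

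Counted with at least 50 UMIs on 1 side and a ratio of (CPM + 10) of at least 2-fold, 9 of 37 genes exceeded the other classified cells in Met-1 neutrophils and 5 were lower, against 7.08% higher and 35.4% lower among all genes compared. The 9 were Slc2a1, Slc2a3, Hk3, Pfkfb4, Ndrg1, Ankrd37, Hif1a, Slc16a3 and Hilpda. The median log2 ratio was 0.39 for these genes and -0.67 for all. The 5 lower genes (Pdk1, P4ha2, Adm, Ddit4 and Epas1) all had 0 UMIs among 94302, where 3 counts would be 31.8 CPM, so for most of them the depth does not separate the classes. Only 2 of the 9 had 50 UMIs in the neutrophils themselves (Slc16a3 and Hilpda). In PyMT, 17 of 33 genes were higher and 3 lower (Aldoc, Ldhb and Adm), against 8.61% and 32.8% of all genes, with medians of 1.05 and -0.55. There the higher genes included 6 of the enzymes (Gpi1, Pfkp, Tpi1, Pgam1, Pkm and Ldha), both mitophagy receptors Bnip3 and Bnip3l, and Vegfa.

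Set against macrophages, the other large myeloid class, Met-1 neutrophils had 6 of 30 genes higher and 3 lower (8.21% and 37.2% of all genes), with 2 higher where 50 UMIs were needed on both sides. In PyMT, 18 of 24 were higher and 0 lower (11.8% and 25.6%), with a median log2 ratio of 1.41 against -0.30 for all genes. Among the PyMT enzymes, Pfkp, the platelet isozyme of phosphofructokinase, was 8.95-fold higher in neutrophils (5.66 to 14.4; 167 against 18.6 CPM). Pkm, which makes pyruvate, was 3.18-fold higher (2.90 to 3.49; 2286 against 718 CPM). Bnip3, an outer mitochondrial membrane receptor for mitophagy, was 7.17-fold higher (5.63 to 9.14; 512 against 71.5 CPM). A CPM level does not give the number of molecules per cell, and neutrophils had the fewest UMIs per cell of the compared classes.

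Between the libraries, neutrophils had the most genes past the 2-fold rule of the 5 classes compared. Of 20 genes compared, 14 were lower in Met-1 than in PyMT and 0 higher, against 18.6% lower and 5.2% higher among the 942 genes compared. The median log2 ratio was -1.26 for the 20 genes and -0.30 for all. Of the 14, 10 encode enzymes on the way from glucose phosphate to lactate. Eno1, the enolase, went from 276 CPM (180 to 404) in Met-1 neutrophils to 1125 CPM (1013 to 1245) in those of PyMT, 4.08-fold higher in PyMT (2.74 to 6.33). Ldha, which makes lactate, was at 456 and 1731 CPM, 3.80-fold higher in PyMT (2.78 to 5.30). The intervals of the levels did not overlap for either gene. Eno1, Ldha, Pkm, Gapdh, Aldoa, Pgk1 and Tpi1 were lower in Met-1 in all 5 classes, so the direction was not particular to neutrophils. For Eno1 the fold was 1.92 in macrophages, 1.77 in T cells, 2.30 in B cells and 2.38 in luminal cells. Some folds of the other genes were within counting error. Among the 10, Gpi1 went the other way in luminal cells, Pgam1 in macrophages and Pfkp in both. The part of this shared direction in the neutrophil result was not tested.

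Of the other enzymes, Pfkp is given below with the genes of few counts. Gpi1 (180 against 676 CPM), the isomerase of glucose 6-phosphate, was 3.75-fold higher in PyMT (2.29 to 6.55), and Tpi1 (244 against 900 CPM), the triose isomerase, 3.69-fold (2.41 to 5.91). Pkm (657 against 2286 CPM) was 3.48-fold higher, Pgam1 (318 against 809 CPM), the mutase, 2.54-fold, and Aldoa (732 against 1770 CPM), the aldolase of most tissues, 2.42-fold. Gapdh (997 against 2298 CPM), the dehydrogenase of the chain, was 2.31-fold higher (1.86 to 2.89), and Pgk1 (223 against 470 CPM), which makes its first ATP, 2.11-fold (1.33 to 3.51). All of these were higher in PyMT neutrophils, and each interval of the fold lay above 1.

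The regulators and hypoxia targets in the same comparison had few Met-1 counts. Bnip3 had 8 UMIs in Met-1 neutrophils (84.8 CPM) against 169 in those of PyMT (512 CPM), a 6.04-fold difference (2.996 to 14.2). Egln3, the HIF prolyl hydroxylase that is itself hypoxia-induced, had 0 UMIs in Met-1 and 53 in PyMT (161 CPM), at least 5.05-fold higher against a floor of 3 counts. Pfkp had 3 UMIs in Met-1 and 55 in PyMT, a ratio of 5.24 (1.70 to 26.2). Pfkfb3 (63.6 against 167 CPM), the inducible maker of the phosphofructokinase activator, and Ankrd37 (117 against 246 CPM), a small ankyrin protein named as a HIF target, were 2.62-fold (1.13 to 7.45) and 2.11-fold (1.12 to 4.38) higher. The 6 genes compared but not counted included Slc16a3 and Hilpda, whose ratios in PyMT over Met-1 were 0.996 (0.782 to 1.28) and 1.38 (1.03 to 1.88). Slc2a1 (1.96, 1.14 to 3.63), Slc2a3, Hk2, which was at 74.2 and 155 CPM, and Bnip3l (1.78, 1.13 to 2.93) were the other 4.

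The neutrophil comparison rests on 36 Met-1 cells and 94302 UMIs. With 50 UMIs needed on both sides, 3 of 5 genes were lower, and with at least 6 markers needed per cell, an alternative chosen after seeing the data, 9 of 16 were. The summed level of the 10 neutrophil markers was 134398 CPM in the Met-1 and 79106 CPM in the PyMT neutrophils, and luminal markers were at 148 and 194 CPM. Macrophage markers were at 318 and 418 CPM, with Ms4a7 and Mrc1 at 0 in both libraries. Several further lists differed between the libraries, among them NK markers (21.2 and 1194 CPM, with Klra8, Klra4, Prf1, Eomes and Klri2 at 0 in both), B cell markers (382 and 30.3 CPM), fibroblast markers (297 and 30.3 CPM), pericyte markers (53.0 and 3.03 CPM) and cycling markers (10.6 and 136 CPM). The part of these differences in the result was not tested. Scaling by TMM or DESeq2 factors shifted all log2 ratios of the class by -0.24 and -0.22, and 17 genes were then lower.

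Outside the 37 genes, 67 further glycolysis and hypoxia genes from a fixed list were followed the same way. That list was chosen with earlier results of these data known, so it is not an independent check. In neutrophils 12 could be compared, of which 7 were lower and 1 higher in Met-1, against 18.6% and 5.2% of all genes compared. Taldo1, the transaldolase of the pentose phosphate pathway, was the higher gene, at 1135 against 555 CPM (2.05-fold, 1.60 to 2.61). Mt1, a metallothionein, was lowest, at 21.2 CPM (2 UMIs) against 634 CPM, a ratio of 29.9 in PyMT over Met-1 (8.17 to 248). Next was Higd1a, a hypoxia-induced mitochondrial protein, at 53.0 against 376 CPM. Ero1l, Cited2, Mif, Fam162a and Wsb1 were the other 5 lower genes.

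**Figure D3:**
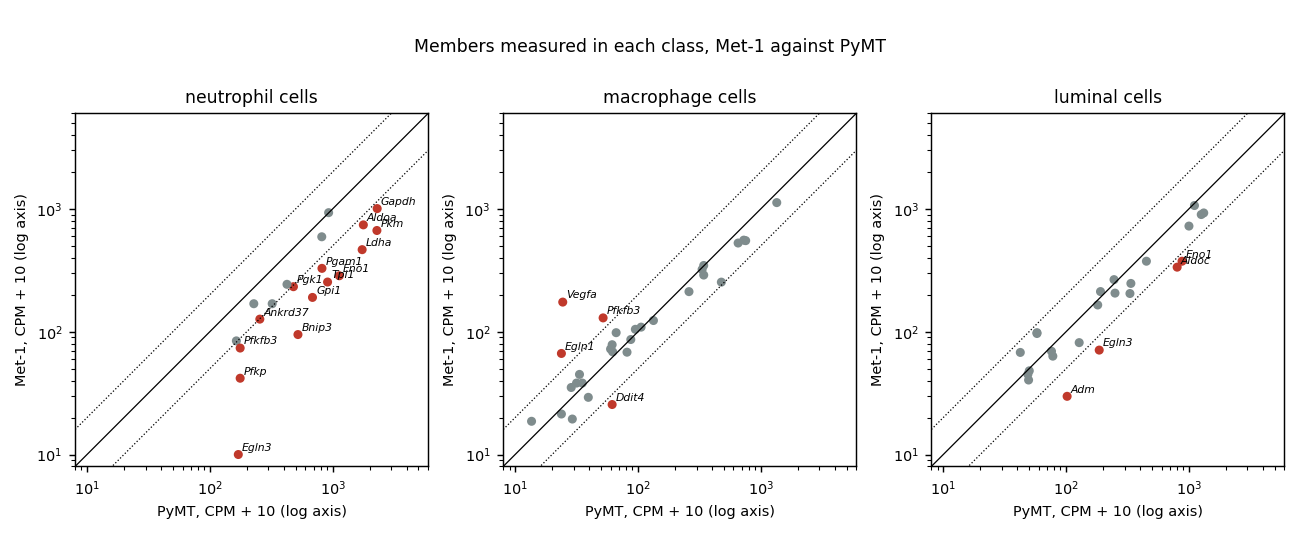
Level of each measured gene in Met-1 (y axis) against PyMT (x axis) in neutrophils, macrophages and luminal cells, as CPM + 10 on log axes; each point is a gene counted 50 times or more in 1 of the libraries, the solid line marks equality, the dotted lines 2-fold, and red points lie past 2-fold. In neutrophils 14 of 20 points lie below the lower dotted line, while in macrophages 26 of 30 lie between the lines.

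Macrophages held 747 Met-1 and 187 PyMT cells at nearly equal median depth (7417 and 7479 UMIs), and most of the genes were alike in the 2 libraries. Of 30 genes compared, 3 were higher in Met-1 (Vegfa, Pfkfb3 and Egln1) and 1 was lower (Ddit4), against 5.69% and 1.26% of all genes, with a median log2 ratio of 0.00 against 0.16. Vegfa, the main growth factor for blood vessels, reached 164 CPM (154 to 175) in Met-1 macrophages against 14.4 CPM (9.24 to 21.5) in those of PyMT, an 11.4-fold difference (7.62 to 17.9). A Vegfa UMI was present in 11.4% (9.17 to 13.9) of thinned Met-1 and 1.60% (0.332 to 4.62) of thinned PyMT macrophages (29.99% and 10.2% without thinning), while thinned B cells had 2.33% (0.858 to 4.99) and 0% (0 to 11.9). The highest single Met-1 cell held 49 of the 1026 Vegfa UMIs.

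The other 3 macrophage genes differed less. Pfkfb3 stood at 120 CPM in Met-1 macrophages against 42.1 CPM in PyMT ones (2.84-fold, 2.22 to 3.69), the opposite of its order in neutrophils. Egln1, the main HIF prolyl hydroxylase, was at 56.5 and 13.8 CPM (4.09-fold, 2.68 to 6.54). Ddit4, a stress-induced inhibitor of mTOR, was at 15.5 and 51.7 CPM, 3.33-fold higher in PyMT (2.46 to 4.49). Egln1 stood higher in Met-1 in each of the 5 classes compared, with 69.5 against 4.93 CPM in T cells, 33.5 against 15.5 CPM in luminal cells, 31.8 against 15.2 CPM in neutrophils and 31.6 CPM against 0 UMIs in B cells, although the PyMT side of the last 2 held 5 and 0 UMIs and Met-1 neutrophils 3. Where 50 UMIs were needed on both sides, Pfkfb3 alone was counted as higher. Of the 67 further pathway genes 38 were compared in macrophages, and 0 were higher and 0 lower, against 5.69% and 1.26% of all genes.

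Within Met-1, 7 of 36 genes were higher in macrophages than in the other classified cells and 5 lower (8.19% and 14.0% of all genes). The higher genes were Vegfa, Slc2a1, Hk2, Hk3, Pfkfb3, Pfkfb4 and Slc16a3, and medians were 0.37 for the list and -0.20 for all genes. Hk2, the inducible hexokinase, was at 113 CPM in Met-1 macrophages and 19.3 CPM in the other cells (5.88-fold, 5.04 to 6.88), and at 124 CPM in PyMT macrophages (2.31-fold, 1.84 to 2.92). In PyMT, where neutrophils and luminal cells make up most of the comparison group, 1 of 31 genes was higher (Hk2) and 12 were lower (10.3% and 18.0% of all genes). Vegfa was among the 12, so that its ratio of macrophages to the other cells was 3.37 (3.04 to 3.75) in Met-1 and 0.316 (0.194 to 0.497) in PyMT.

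Macrophages were not uniform. Clustering all cells without the 37 genes split most macrophages into a cluster led by Cxcl2 and Igf1 in Met-1 (cluster 0; 277 Met-1 and 107 PyMT cells), one led by the interferon-induced gene Ifit3 (cluster 1; 308 and 15) and one led in Met-1 by Cyb5a, Pf4 and Prdx6 (cluster 5; 108 and 50). In cluster 5 Gapdh was at 2185 CPM (Met-1) and 2031 CPM (PyMT), against 974 and 1234 CPM in cluster 0 and 1023 CPM in the Met-1 cells of cluster 1. Aldoa, Pkm, Pgam1 and Pgk1 were likewise highest in cluster 5 of each library. Vegfa ran the other way within Met-1, with 217 CPM in cluster 0, 143 CPM in cluster 1 and 14.8 CPM in cluster 5, as did Pfkfb3 (113, 173 and 20.3 CPM) and Hk2 (110, 156 and 27.7 CPM). Thus the cells richest in enzyme RNA were the poorest in Vegfa, Pfkfb3 and Hk2 RNA among these 3 clusters. Within cluster 0 alone, the Met-1 cells had 217 CPM of Vegfa (201 to 235) and the PyMT cells 17.2 CPM (10.5 to 26.5). Cluster 5 cells had a median of 3863 UMIs in Met-1 and 2756 in PyMT, against 9362 and 10148 in cluster 0, and ribosomal protein genes took 20.2% of their Met-1 UMIs against 12.2%. The part of depth and of that share in the enzyme levels was not tested.

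**Figure D4:**
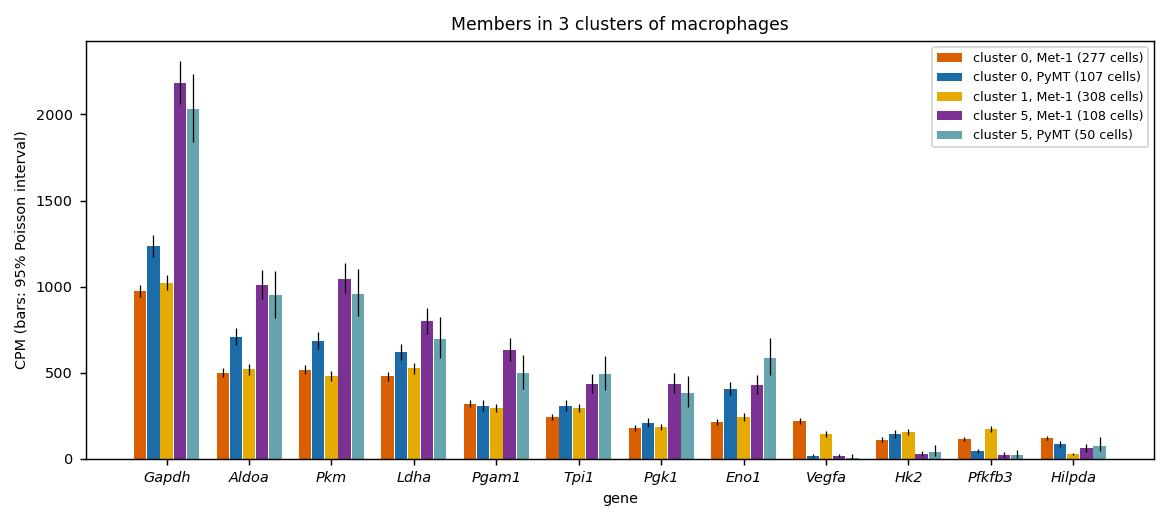
Level (CPM, linear axis from 0) of 12 of the genes in macrophages of 3 clusters by library, for the cluster and library pairs with at least 50 cells; bars show 95% Poisson intervals. Gapdh, Aldoa and Pkm were highest in cluster 5 of both libraries, while Vegfa was highest in cluster 0 of Met-1 (217 CPM).

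Monocytes, set apart by Ccr2 or Ly6c2 with few C1q UMIs, were 27 Met-1 cells. Their enzyme levels were near those of macrophages, with Gapdh at 992 CPM (883 to 1110), Pgam1 at 352 CPM and Gpi1 at 339 CPM. Vegfa was 4.58-fold lower than in Met-1 macrophages (2.55 to 9.20; 35.9 CPM), and Hk2 4.96-fold lower (2.40 to 12.4; 22.8 CPM). Pfkp was 3.11-fold higher (1.94 to 4.80; 78.3 CPM).

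Met-1 lymphocytes were below the other classified cells in most of the genes, with median log2 ratios of -0.66 in T, -0.54 in NK and -0.87 in B cells. For all genes compared these medians were -0.26, -0.18 and -0.31. Among the exceptions was Hilpda in NK cells. Its level in Met-1 NK cells was 208 CPM (185 to 233), against 120 CPM (107 to 134) in T cells and 44.1 CPM (32.3 to 58.8) in B cells, and 3.18-fold (2.78 to 3.62) that of the other classified cells. Vegfa was at 96.6 CPM in NK cells and 36.1 CPM in T cells, 2.67-fold higher in NK cells (2.04 to 3.52). Pdk1, the kinase that closes the entry of pyruvate into mitochondria, went the other way, with 40.4 CPM in T and 9.30 CPM in NK cells (4.34-fold, 2.43 to 8.43). B cells had the lowest Ldha (198 CPM), Tpi1 (51.8 CPM) and Pgam1 (108 CPM) of the Met-1 classes, although the Pgam1 interval (89.3 to 130) overlaps that of T cells.

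Between the libraries, T cells differed in 2 of 22 genes, both higher in Met-1, a share near that of all genes (10.6% higher, 2.99% lower). These were Vegfa, with 93 UMIs in Met-1 and 0 in PyMT (at least 2.44-fold higher against a floor of 3 counts), and Egln1, with 179 UMIs and 1 (14.1, 2.50 to 560). In B cells 1 of 11 genes was counted as lower in Met-1 and 0 as higher (4.16% and 21.2% of all genes). It was Eno1, at 117 and 269 CPM, and 17 PyMT UMIs lie behind it. Among the further pathway genes, Wsb1, a substrate receptor of a ubiquitin ligase, was at 74.2 and 217 CPM in T cells and 81.5 and 269 CPM in B cells, lower in Met-1 in both. Rora was at 22.5 and 59.2 CPM in T cells, Kdm3a at 27.6 and 4.93 CPM, Hif1an at 26.8 and 4.93 CPM (1 PyMT UMI each), and Higd1a at 83.4 and 31.7 CPM (2 UMIs) in B cells.

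Pericytes stood apart through Epas1, which encodes HIF-2 alpha. Their level was 388 CPM (354 to 426), 39.8-fold (33.2 to 48.0) that of the other Met-1 cells, and 94.9% of pericytes had an Epas1 UMI (35.7%, 26.3 to 46.0, after thinning). Of Met-1 T cells, 1.36% had one (0%, 0 to 1.25, after thinning), at a median depth of 7915 UMIs against 12150 in pericytes. Myofibroblastic fibroblasts had 45.2 CPM (37.7 to 53.8), progenitor fibroblasts 12.99 CPM (7.10 to 21.8) and no other class with at least 20 cells more than 11.7 CPM. Endothelial cells, which are known for Epas1, are not among the classes here, and the summed level of 8 endothelial markers in pericytes was 117 CPM, with Cdh5, Kdr, Tie1 and Cldn5 at 0.

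Against all other Met-1 cells, 3 of 36 genes were higher in pericytes (Epas1, Egln3 and Ldhb) and 6 lower (8.24% and 10.8% of all genes). The share of higher genes is near that of all genes. Egln3 was at 27.1 CPM, 7.85-fold (4.92 to 12.3) the level of the other cells, and Ldhb, the heart isozyme of lactate dehydrogenase, at 87.3 CPM, 3.51-fold (2.80 to 4.37). Against myofibroblastic fibroblasts, 4 of 25 genes were higher and 0 lower (4.96% and 8.04%): Epas1 (8.59-fold, 7.04 to 10.5), Pfkp (3.29-fold, 2.40 to 4.53), Ldhb (3.14-fold, 2.32 to 4.28) and Ddit4 (2.51-fold, 1.80 to 3.50). P4ha1, a prolyl hydroxylase that modifies collagen rather than HIF, was highest in pericytes at 131 CPM (111 to 153). Of the further pathway genes, Ndufa4l2, a HIF-induced subunit associated with the respiratory chain, was at 1193 CPM in pericytes against 29.6 CPM in the other cells, and Loxl2, a collagen cross-linking enzyme, at 292 against 26.7 CPM. Lox, its relative, was lowest among the genes counted, at 19.5 against 73.9 CPM, followed by Angptl4 at 11.0 against 38.7 CPM.

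The 2 fibroblast states of Met-1 differed in 7 of the 27 genes compared. Adm, the vasodilator adrenomedullin, was at 245 CPM (216 to 276) in progenitor fibroblasts and 23.5 CPM (18.2 to 29.9) in myofibroblastic fibroblasts, a 10.4-fold difference (7.93 to 13.9). Vegfa was 7.31-fold (5.27 to 10.3; 133 against 18.2 CPM), Ndrg1, a stress-response gene, 6.32-fold (3.94 to 10.4), Hk2 4.24-fold (2.68 to 6.80) and Pfkp 2.57-fold (1.82 to 3.63) higher in the progenitor state. The 2 genes higher in the myofibroblastic state were Pkm (349 against 152 CPM) and Epas1, so 2 genes were higher and 5 lower there (9.17% and 5.73% of all genes). With a pseudocount of 1 CPM 4 were higher, and with 50 UMIs needed on both sides 1 was higher and 3 lower. An Adm UMI was present in 44.3% of progenitor fibroblasts (10.7%, 4.72 to 19.9, after thinning) against 0.382% of Met-1 B cells (0%, 0 to 1.42), at median depths of 13024 and 3537 UMIs, and 28 of the 264 UMIs were in 1 cell. In the 8 PyMT progenitor fibroblasts Adm was at 82.5 CPM (35.6 to 163) and Hk2 at 309 CPM (209 to 442).

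P4ha2, the second collagen hydroxylase, marked the mesenchymal classes. It was at 69.8 CPM (60.3 to 80.3) in myofibroblastic fibroblasts, 54.7 CPM in progenitor fibroblasts and 49.2 CPM in pericytes, and at most 12.3 CPM in every other class with at least 20 cells. Egln1 was highest in the same group, with 109 CPM in myofibroblastic fibroblasts, 102 CPM in pericytes and 82.6 CPM in progenitor fibroblasts. Among the further pathway genes, Lox was at 351 CPM in myofibroblastic fibroblasts, against 15.99 CPM in the other Met-1 cells. The lowest there were Taldo1 (92.9 against 301 CPM) and Pgd (24.6 against 86.0 CPM), both of the pentose phosphate pathway. Progenitor fibroblasts had the lowest Gapdh (302 CPM), Aldoa (218 CPM), Pkm (152 CPM) and Pgk1 (73.3 CPM) of the Met-1 classes, and for the last 2 the interval overlaps that of B cells.

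Luminal cells were the main source of Aldoc, the brain-type aldolase. The 35 luminal cells of Met-1 had 326 CPM (283 to 372) and the 87 of PyMT 793 CPM (749 to 839), against 5.44 and 17.9 CPM in the other cells of each library. The folds were 59.9 (46.6 to 77.4) and 44.3 (32.7 to 61.6). After thinning, 24.1% (10.3 to 43.5) and 44.0% (33.2 to 55.3) of luminal cells had an Aldoc UMI (65.7% and 87.4% without thinning), while T cells had 0% (0 to 1.25) and 2.56% (0.0649 to 13.5), or 2.71% and 7.69% without thinning. Pfkl, the liver isozyme of phosphofructokinase, was at 196 and 240 CPM in luminal cells, and Ddit4 at 202 and 181 CPM, both the highest of any class in their library.

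Within the libraries, Met-1 luminal cells had 7 of 35 genes higher and 7 lower (6.99% and 15.4% of all genes). PyMT luminal cells had 8 of 33 higher and 10 lower (16.7% and 18.4% of all genes). Both PyMT shares were somewhat above those of all genes, with a median log2 ratio of 0.11 against 0.18 for all genes. Slc16a3 and Hilpda were among the lower genes in both libraries, with Slc16a3 at 3.04 and 12.96 CPM. However, the mean of the per-cell CPM values put Hilpda higher in Met-1 luminal cells (log2 ratio 0.25). Between the libraries, 4 of 24 genes were lower in Met-1 and 0 higher (7.78% and 5.22% of all genes), and the medians were -0.29 for the list and -0.06 for all genes. Aldoc (2.44-fold higher in PyMT, 2.10 to 2.83) and Eno1 (365 against 870 CPM; 2.38-fold, 2.08 to 2.75) are enzymes. Egln3 (60.9 against 176 CPM; 2.90-fold, 2.07 to 4.14) and Adm (19.8 against 92.0 CPM; 4.65-fold, 2.63 to 8.95) are HIF targets. Ldha, by contrast, was at 1056 CPM (979 to 1138) and 1101 CPM (1049 to 1154), a ratio of 1.04 in PyMT over Met-1 (0.954 to 1.14).

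Luminal cells of Met-1 had a median of 7780 UMIs and those of PyMT 17508, and the summed luminal markers were at 36963 and 14574 CPM. Neutrophil markers were at 965 CPM in Met-1 luminal cells and 183 CPM in PyMT luminal cells, with Csf3r, Cxcr2, Retnlg, Hdc, Mmp9 and Clec4d at 0 in Met-1, and basal markers at 28.9 and 251 CPM. Their part in the result was not tested. Of 23 further pathway genes compared, 1 was higher in Met-1 and 4 were lower, against 5.22% and 7.78% of all genes. The higher gene was Bhlhe40, a HIF-induced repressor (237 against 85.5 CPM). The lowest 2 of the 4 were Car9, the carbonic anhydrase used as a hypoxia marker, at 9.13 against 70.6 CPM, and Plod1, a collagen lysyl hydroxylase, at 12.2 against 59.6 CPM.

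The leading isozyme of several steps differed between classes. Shares below are of the UMIs of an isozyme set in a class and library, where the set had at least 20 UMIs and the class at least 20 cells. Hk2 led the hexokinases in PyMT neutrophils (65.4%, 53.8 to 75.8), in macrophages of both libraries (76.0%, 73.1 to 78.7, and 81.1%, 75.7 to 85.7) and in Met-1 progenitor fibroblasts (63.4%, 52.0 to 73.8). Hk1, the housekeeping isozyme, led in the other 8 of 12, with 75.8% (67.5 to 82.8) in Met-1 T cells and 72.9% (64.9 to 80.0) in PyMT luminal cells. Its lead was within counting error in Met-1 monocytes (39.1%, 19.7 to 61.5), B cells (58.3%, 40.8 to 74.5) and luminal cells (51.5%, 39.0 to 63.8). Hk3 took 18.9% and 14.2% in macrophages and 21.8% in PyMT neutrophils, and its share in Met-1 monocytes is not given here.

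Phosphofructokinase divided along another line. Pfkl led in macrophages (68.9%, 64.8 to 72.8, in Met-1 and 73.1%, 64.2 to 80.8, in PyMT) and in luminal cells (73.7%, 66.5 to 80.1, and 84.9%, 81.2 to 88.1). Pfkp led in the other 9 of 13, from 45.2% in myofibroblastic to 81.4% in progenitor fibroblasts, with intervals that included equal shares with Pfkl in myofibroblastic fibroblasts, Met-1 B cells and PyMT neutrophils. Monocytes, at 77.4% Pfkp (58.9 to 90.4), were on the lymphocyte side of this split rather than the macrophage side. Pfkm, the muscle isozyme, had 64 UMIs in Met-1 and 23 in PyMT, fewer than 50 in every class, and at most 10.8% of a set (myofibroblastic fibroblasts).

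Aldoa led in all 15 class and library pairs, with at least 91.7% outside luminal cells, where Aldoc took 26.8% (23.7 to 30) in Met-1 and 38.8% (37.1 to 40.5) in PyMT. Ldha led in all 14, between 82.5% and 99.8%. The lowest share was that of pericytes, where Ldhb took 17.5% (14.5 to 20.8), and NK cells had 1 Ldhb UMI of 565. Slc2a1 led in all 11 sets, with an equal count of Slc2a3 in Met-1 neutrophils. It made up 91.5% to 98.1% of the pair in macrophages and luminal cells and 50% to 73.4% in the other 7.

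The oxygen-sensing pairs changed their lead between classes as well. Egln1 led in 9 of 12, at 98.1% to 100% in Met-1 macrophages, T cells, NK cells, B cells and both fibroblast states. Egln3 led in PyMT neutrophils (91.4%, 81.0 to 97.1) and in luminal cells (64.5%, 51.3 to 76.3, in Met-1 and 91.9%, 88.2 to 94.7, in PyMT). Hif1a led in 11 of 12 and Epas1 in pericytes (77.4%, 73.8 to 80.7), with myofibroblastic fibroblasts next at 28.5% Epas1 (24.3 to 32.9). Bnip3l exceeded Bnip3 in 13 of 14, the exception being PyMT neutrophils, where Bnip3 took 55.2% (49.5 to 60.9) and the interval includes equality. In Met-1 neutrophils Bnip3 took 26.7% (12.3 to 45.9) of 30 UMIs. P4ha1 led in all 10, by the least in myofibroblastic fibroblasts (55.8%, 51.0 to 60.4), and Pfkfb3 led in 5 of 8, with Pfkfb4 ahead in Met-1 B cells, myofibroblastic fibroblasts and pericytes by less than the counting interval.

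**Figure D5:**
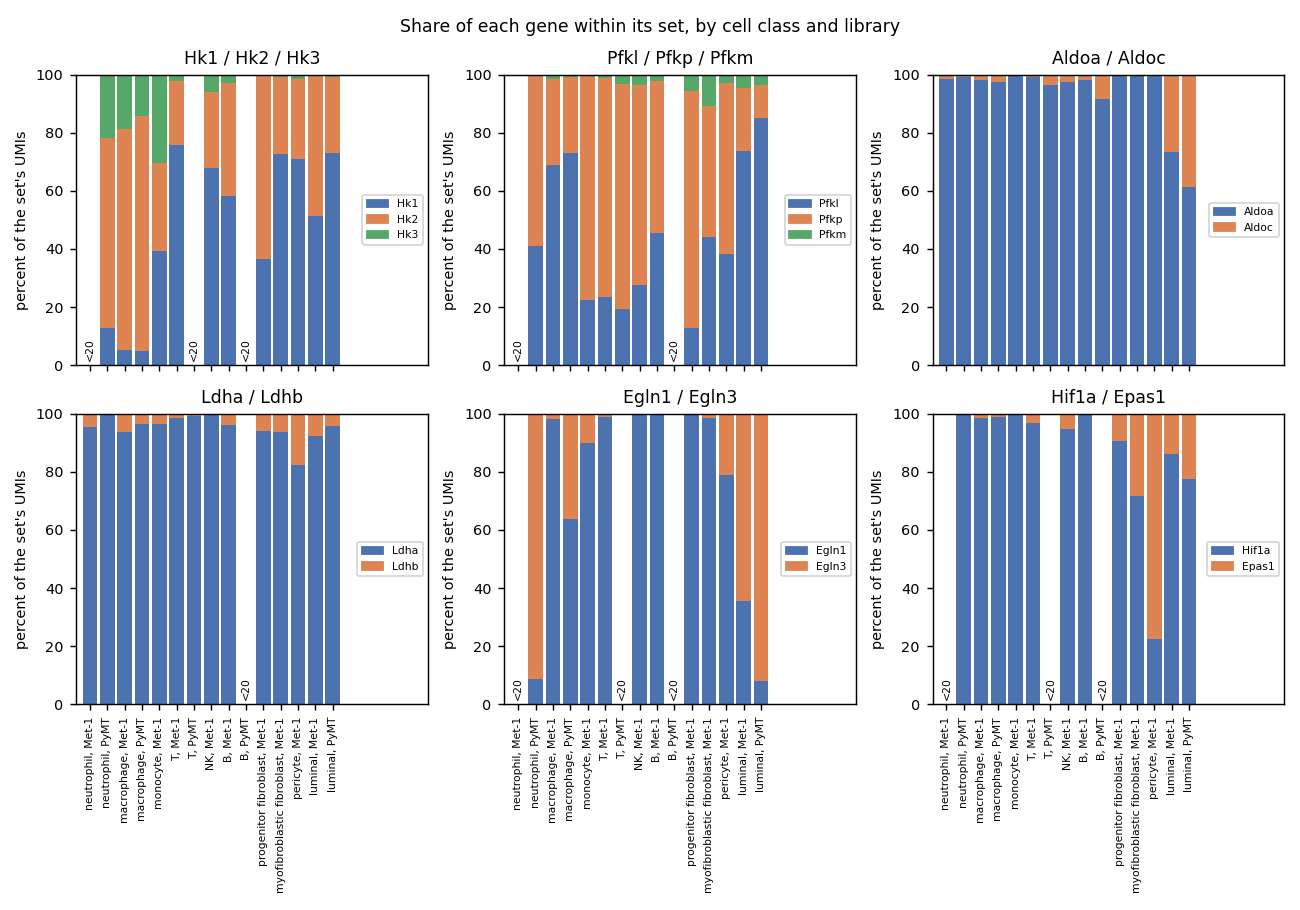
Share (percent) of each gene in the UMIs of its isozyme or paralogue set by cell class and library, for 6 of the 10 sets; "<20" marks a set with fewer than 20 UMIs. Hk2 dominates in macrophages, Pfkl in macrophages and luminal cells, Egln3 in luminal cells and PyMT neutrophils, and Epas1 in pericytes.

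Ndrg1 remains to be described across classes, and it had no single home. Neutrophils had 95.4 CPM (9 UMIs) in Met-1 against 42.4 CPM in PyMT, and the gene stood at 71.5 and 118 CPM in luminal cells, at 65.3 CPM in Met-1 monocytes and at 5.93 and 13.2 CPM in macrophages. Pdk1 was between 5.57 and 49.3 CPM in every class with a count above 0. Gapdh, Aldoa, Pgam1, Tpi1, Ldha, Pgk1 and Eno1 have near-identical copies or pseudogenes in the mouse genome, and the way reads shared with these were counted was not given in the sources used here, so their levels are less certain than those of the other genes.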

How the data were processed

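The authors deposited UMI count matrices of 2 single-cell libraries, made with Cell Ranger 3.1.0 on mm10, per the submitters' processing notes. The annotation release was not given in the sources used here. Barcodes were dropped below 500 UMIs, below 200 detected genes or where 13 mitochondrial genes took over 10% of UMIs, and Scrublet doublet calls (23 in Met-1, 1 in PyMT) were removed. Cells were assigned to a lineage with at least 4 of its 10 markers and at least 2 more than the next of 8 lineages, a scoring rule set after the marker levels were seen. Monocytes had at most 3 C1q UMIs. UMIs were summed per class and library. A gene was compared with at least 50 UMIs on 1 side and counted as higher or lower from a 2-fold ratio of (CPM + 10), with no p-value because each tumour type has 1 library. Intervals are 95% exact Poisson (levels), exact conditional binomial (ratios) or Clopper-Pearson (shares). Shares of cells with a UMI were also taken after thinning to 1000 UMIs. Clusters used 2000 variable genes without the 37 genes, 30 principal components, 15 neighbours and Leiden resolution 1. All 37 genes were to be named, with the highest and lowest 2 of the 67 further pathway genes past the call, of which 1 is not reported here. The members and lists were chosen with earlier results of these data known. The counting was tested on simulated data, where 200 genes of at least 50 CPM were changed 4-fold with Poisson noise alone. For macrophages all 200 were compared and 100% recovered. For neutrophils only 90 of the 200 were compared, of which 98.9% were recovered. Smaller changes, near the 2-fold limit, and other sources of spread were not simulated. Tools were Python 3.11.15, numpy 2.4.6, scipy 1.17.1, pandas 2.3.3, scanpy 1.11.5, leidenalg 0.10.2 and R 4.3.3, with edgeR 4.0.16 and DESeq2 1.42.0 used for scaling factors alone. The alternatives changed the barcode filters, class rule, scaling, pseudocount and count minimum.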

Additional observations from a re-analysis of the deposited data

Results flagged for a closer look

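Vegfa stood on opposite sides of the other cells in the macrophages of the 2 libraries, with a log2 ratio of macrophages over the other classes of 1.57 in Met-1 and -1.19 in PyMT. Pfkfb3 changed its order between the libraries from one myeloid class to the other, with a log2 ratio of Met-1 over PyMT of -1.26 in neutrophils, where 6 Met-1 UMIs lie behind it, and 1.32 in macrophages. Each value comes from 1 library per tumour type, and the differences were not tested.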

How the results depend on the processing

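No paired analysis was possible because each tumour type has 1 library. Counts of genes stayed within 1.5 times the value in the report for 452 of 510 alternative values and moved further for 58. Of 5208 log2 ratios under the alternatives, 4951 stayed, 256 moved and 1 reversed, Hilpda in Met-1 luminal cells against the other classes, at 0.25 with the mean of per-cell CPM. Of 1583 isozyme shares 31 moved, and of 1110 shares of cells with a UMI 614 moved, all without thinning or when thinned to 2000 UMIs. The alternative of at least 6 markers, and all alternatives for the pathway genes, were chosen after seeing the data. The cause of each change below was not tested, except that a count minimum on both sides compares fewer genes. With 50 UMIs needed on both sides, neutrophils of Met-1 against PyMT had 3 lower genes and 0 lower pathway genes, macrophages 1 higher, T cells 0 higher, B cells 0 lower, and luminal cells 2 lower and 0 lower pathway genes. Under the same minimum, neutrophils against the other classes had 2 higher and 0 lower in Met-1 and 0 lower in PyMT, and against macrophages 2 higher and 0 lower in Met-1. Macrophages against the other classes had 1 lower in Met-1 and 3 lower in PyMT, luminal cells 0 lower in Met-1 and 4 higher and 1 lower in PyMT, pericytes 0 lower, and myofibroblastic against progenitor fibroblasts 1 higher and 3 lower. With no minimum count, Met-1 against PyMT gave 1 higher gene in neutrophils with 3 higher pathway genes, 1 lower in T cells, 5 higher and 4 lower in B cells, 2 higher pathway genes in luminal cells, and PyMT neutrophils had 1 lower than macrophages. With Leiden classes, T cells had 1 lower and B cells 2 lower, and the higher pathway gene of neutrophils was lost (0). Without the top cell of each gene, that count was again 0, B cells had 1 higher and 0 lower, and Met-1 neutrophils 9 lower against the other classes and 7 lower against macrophages. With CPM outside mitochondrial and ribosomal protein genes, the neutrophil pathway count was 0, Met-1 macrophages had 9 lower, PyMT macrophages 0 higher, and Met-1 neutrophils 5 lower than macrophages. With the mean of per-cell CPM it was 0 as well, B cells had 2 lower, luminal cells 1 higher and 7 lower pathway genes, PyMT macrophages 0 higher and pericytes 5 higher. With a pseudocount of 1 CPM, macrophages had 2 higher and 1 lower pathway genes between the libraries, Met-1 neutrophils 9 lower, Met-1 macrophages 10 lower, pericytes 8 higher and myofibroblastic fibroblasts 4 higher. TMM factors gave 0 higher pathway genes in neutrophils and 0 lower genes in B cells, DESeq2 factors 0 higher pathway genes in neutrophils and 2 lower genes in macrophages. They moved all log2 ratios of a class by -0.24 (neutrophils, TMM) to 0.17 (B cells, TMM). With at least 6 markers, neutrophils had 9 lower genes and 0 higher pathway genes, and B cells 3 lower. Among the classes compared between libraries, depth limits PyMT B cells most, where 3 counts are 47.5 CPM, then Met-1 neutrophils (31.8 CPM).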
